A study of Mus musculus with 75 samples.

Results

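Skeletal muscle fibres fire action potentials and return to rest through a small set of membrane channels, and 7 of their genes, picked out of the 13856 genes of the expression table by symbol, are described here across 10 groups of mice. Clcn1 encodes the main chloride channel of the skeletal muscle membrane. Scn4a encodes the pore of the muscle voltage-gated sodium channel, and Scn4b and Scn3b encode beta subunits that modify sodium channel gating. Kcnh2 encodes the ERG potassium channel, Kcnj11 the pore of the ATP-sensitive potassium channel, and Kcnj2 an inward rectifier that helps to set the resting potential. All 7 genes were in the table. Their Ensembl identifiers are ENSMUSG00000029862 for Clcn1, ENSMUSG00000001027 for Scn4a, ENSMUSG00000046480 for Scn4b, ENSMUSG00000049281 for Scn3b, ENSMUSG00000038319 for Kcnh2, ENSMUSG00000096146 for Kcnj11 and ENSMUSG00000041695 for Kcnj2. The genes had been chosen by their log2 expression across the arms of these same libraries, so their levels and differences are given as a description, without tests.

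The muscle was gastrocnemius, a calf muscle, of male and female Balb/c mice, whose full age in weeks is not given in the sources used here. C26 cells are a murine colon carcinoma line, and their growth is a common model of cancer wasting. Mice received bilateral injections of C26 cells and, from day 12, the drug 5-fluorouracil, paclitaxel or cisplatin given as 2 cycles of 2 injections a week at 75% of the maximum dose tolerated. A further C26 group received saline as vehicle, and the remaining mice received phosphate-buffered saline (PBS) in place of tumour cells, and saline. Muscle was taken at day 25. No group received a drug without a tumour. Female libraries numbered 8 for C26 with 5-fluorouracil, 7 with paclitaxel, 6 with cisplatin, 7 for C26 with saline and 7 for PBS. Male libraries numbered 8 with 5-fluorouracil, 6 with paclitaxel, 8 with cisplatin, 8 for C26 with saline and 8 for PBS.

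At rest, chloride flowing through the chloride channel steadies the membrane of a muscle fibre, and inherited loss of this channel causes myotonia, in which fibres keep firing after a contraction ends. The sodium channel starts each action potential and carries it into the transverse tubules, where the calcium channel complex couples it to contraction. Potassium channels bring the membrane back to rest, and the ATP-sensitive channel ties potassium flow to the energy state of the fibre.

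Sequencing depth, as estimated counts in M (mega), ran from 11.4 to 40.5 with a median of 22.5. Values are log2 normalized expression as the authors deposited it, so 1 unit is a doubling. Behind a value stood a median of 12633 estimated counts for Scn4a, 9237 for Scn4b, 4747 for Clcn1, 3916 for Kcnj11, 971 for Kcnj2, 99 for Scn3b and 91 for Kcnh2. The smallest was 9.0, for Kcnh2 in a C26 saline male. Markers of fast fibres, which make up most of this muscle, averaged 13.0 to 13.6 in the 10 groups. Libraries also differed in GC slope, the slope of their genes' deviations on transcript GC content, and 19 of 73 lay above 0.1: 4 of 6 with paclitaxel, 4 of 8 with 5-fluorouracil, 2 of 8 with cisplatin, 0 of 8 with C26 and saline and 2 of 8 with PBS in males, and 0 to 2 in each female group.

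The stretches before the start sites of Clcn1, Kcnh2 and Scn4a are shown to compare their sequence. Among the 7 genes, these had the means that lay furthest below PBS in C26 saline males. RefSeq promoters on GRCm38.p6 matched 5 of the 7 genes, without Scn3b and Kcnj11. The 250 bases before the start are printed 5′ to 3′, with motif matches in capitals.
Clcn1 (chr6:42286435-42286684, plus strand): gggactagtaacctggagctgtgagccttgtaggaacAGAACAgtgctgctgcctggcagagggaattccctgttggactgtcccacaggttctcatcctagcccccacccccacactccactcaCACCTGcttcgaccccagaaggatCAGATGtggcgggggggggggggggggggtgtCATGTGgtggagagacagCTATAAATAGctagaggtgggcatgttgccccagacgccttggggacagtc
Kcnh2 (chr5:24329592-24329841, minus strand): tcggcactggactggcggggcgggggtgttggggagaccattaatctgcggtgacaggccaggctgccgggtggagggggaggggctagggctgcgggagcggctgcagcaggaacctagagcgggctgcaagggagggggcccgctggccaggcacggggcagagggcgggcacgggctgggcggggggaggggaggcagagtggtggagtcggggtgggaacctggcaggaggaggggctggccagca
Scn4a (chr11:106349391-106349640, minus strand): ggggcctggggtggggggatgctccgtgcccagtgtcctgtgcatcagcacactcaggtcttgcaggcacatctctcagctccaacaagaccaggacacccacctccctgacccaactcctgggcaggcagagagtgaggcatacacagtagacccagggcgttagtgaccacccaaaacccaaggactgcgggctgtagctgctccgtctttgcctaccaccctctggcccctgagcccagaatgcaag

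Both strands were searched for the E-box CANNTG, the MEF2 consensus, the FoxO motif TGTTTAC, the STAT motif TTCNNNGAA and the glucocorticoid receptor half-site AGAACA. Capitals in the Clcn1 stretch mark the half-site, 3 E-boxes and a MEF2 consensus, CTATAAATAG, which lies 51 to 42 bases before the start. No match overlapped another. The stretches of Kcnh2 and Scn4a held no match to any of the 5 motifs. Kcnj2 had 2 E-boxes and Scn4b 1 half-site, TGTTCT on the strand printed. Of 32851 promoter stretches of the same length, 66.2% held an E-box, 16.1% the half-site, 7.02% the STAT motif, 3.17% the FoxO motif and 0.508% the MEF2 consensus. The Clcn1 stretch was 60% GC, that of Scn4a 61.6% and that of Kcnh2 73.6%. A match is a run of letters and not a measured binding site.

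Clcn1 lay lower in muscle of C26 saline mice than in muscle of PBS mice in both sexes. In males it ran from 6.38 to 7.49 with a median of 6.88 in C26 saline libraries, against 7.81 to 8.20 with a median of 8.00 in PBS libraries. All 8 C26 saline males lay below every PBS male. Their means were 6.88 ± 0.34 in C26 saline and 8.00 ± 0.13 in PBS (SD, n = 8 each), a difference of -1.12 ± 0.13 (SE from the fit over all genes), or a level 2.17-fold lower with the tumour. In females the values ran from 7.08 to 7.76 with a median of 7.48 in C26 saline, against 7.82 to 8.17 with a median of 7.98 in PBS. Here too all 7 C26 saline libraries lay below all 7 PBS libraries, by -0.53 ± 0.13. In bulk muscle, fewer cells of a type and less RNA per cell cannot be told apart. An annotated gene on the opposite strand, Fam131b, overlaps exons of Clcn1. Fam131b stayed between -3.09 and 0.07 in the 73 libraries, far under the level of Clcn1. How counting used the strand is not given in the sources used here, so reads from the stretch where the 2 genes overlap cannot be told apart.

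Each drug group had a higher mean of Clcn1 than C26 saline. Male means were 7.68 ± 0.20 with 5-fluorouracil (n = 8), 7.39 ± 0.52 with paclitaxel (n = 6) and 7.82 ± 0.29 with cisplatin (n = 8), all above the C26 saline mean. Their differences from C26 saline were 0.80 ± 0.13, 0.51 ± 0.14 and 0.94 ± 0.13 in the same order of drugs, and that of paclitaxel was 0.87 without libraries of high GC slope. With 5-fluorouracil 7 of 8 males lay above the highest C26 saline male, with cisplatin 7 of 8 and with paclitaxel 2 of 6. Paclitaxel males were the most spread, from 6.48 to 8.03. Female means were 7.81 ± 0.17 with 5-fluorouracil (n = 8), 7.64 ± 0.16 with paclitaxel (n = 7) and 7.76 ± 0.08 with cisplatin (n = 6). They lay 0.37 ± 0.13, 0.21 ± 0.13 and 0.32 ± 0.14 above C26 saline, and the groups overlapped. Set against PBS, the female means lay -0.16, -0.33 and -0.21 away and the male means -0.32, -0.61 and -0.18 away, again in the order 5-fluorouracil, paclitaxel and cisplatin. All 7 paclitaxel females lay below every PBS female. In order of level, PBS stood highest and C26 saline lowest in both sexes. The female drug groups overlapped one another.

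Kcnh2, a channel known in mice to be raised in some forms of muscle wasting, was low in abundance and lay lower with the tumour. Male C26 saline libraries ran from -1.59 to 1.44 with a median of 0.58, against 2.20 to 3.43 with a median of 2.74 in PBS males. No C26 saline male reached the lowest PBS male. The means were 0.26 ± 1.17 in C26 saline and 2.76 ± 0.38 in PBS (SD, n = 8 each), a difference of -2.50 ± 0.30, or 5.67-fold lower. The C26 saline males were themselves uneven, with 9.0 to 75.0 estimated counts, against 91.0 to 226 in PBS males. With a constant of 1 added before the logarithm the male difference was -1.73. Females had 0.66 to 2.61 with a median of 1.97 in C26 saline, against 2.32 to 2.96 with a median of 2.74 in PBS. Of 7 C26 saline females, 6 lay below the lowest PBS female, and the difference of means was -0.95 ± 0.32.

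In drug-treated males Kcnh2 lay nearer to PBS. It averaged 1.85 ± 0.44 with 5-fluorouracil, 2.32 ± 0.88 with paclitaxel and 2.03 ± 0.30 with cisplatin, against 0.26 ± 1.17 in C26 saline. These means lay 1.60 ± 0.30, 2.06 ± 0.33 and 1.77 ± 0.30 above C26 saline, or 0.98, 1.38 and 1.11 with a constant of 1 added before the logarithm. Every cisplatin male, 1.65 to 2.36, lay above every C26 saline male. With 5-fluorouracil this held for 7 of 8 males and with paclitaxel for 5 of 6. Relative to PBS the male drug groups lay at -0.91, -0.44 and -0.73. Females showed little of this: 1.94 ± 0.56 with 5-fluorouracil, 1.94 ± 0.49 with paclitaxel and 1.84 ± 0.38 with cisplatin stood beside 1.76 ± 0.68 in C26 saline, differences of 0.18 ± 0.31, 0.18 ± 0.32 and 0.09 ± 0.34. Female drug groups lay at -0.77, -0.77 and -0.86 relative to PBS. In order of level the female groups other than PBS differed by less than their SDs.

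Scn3b, whose product is known mainly from nerve and heart, ran the other way. Male C26 saline libraries had 2.56 to 4.90 with a median of 3.81, against 0.31 to 2.07 with a median of 1.11 in PBS males. The groups did not overlap. Their means were 3.92 ± 0.74 in C26 saline and 1.22 ± 0.54 in PBS (SD, n = 8 each), a difference of 2.71 ± 0.29, or 6.52-fold higher with the tumour. Female C26 saline libraries had 1.76 to 4.29 with a median of 2.60, against 0.73 to 1.48 with a median of 1.16 in PBS females. All 7 lay above every PBS female, by 1.63 ± 0.31 in the mean, or 3.09-fold. In males the range of estimated counts was 164 to 822 with C26 saline and 21.0 to 80.0 with PBS.

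With the drugs Scn3b lay lower than in C26 saline in males. It averaged 1.93 ± 0.49 with 5-fluorouracil, 2.63 ± 0.47 with paclitaxel and 2.22 ± 0.16 with cisplatin, against 3.92 ± 0.74 in C26 saline. The differences were -1.99 ± 0.29, -1.29 ± 0.31 and -1.70 ± 0.29. All 8 cisplatin males, 2.04 to 2.47, lay below every C26 saline male, as did 7 of 8 with 5-fluorouracil and 3 of 6 with paclitaxel. Each male drug group still averaged above PBS, by 0.72, 1.42 and 1.00, and the 6 paclitaxel males lay above every PBS male. Female means were 1.90 ± 0.61 with 5-fluorouracil, 2.47 ± 0.84 with paclitaxel and 1.92 ± 0.54 with cisplatin, against 2.77 ± 0.89 in C26 saline. Their differences were -0.86 ± 0.30, -0.29 ± 0.31 and -0.85 ± 0.32, and every female drug group overlapped C26 saline. Paclitaxel had the highest mean of the drug groups in both sexes, with overlap.

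**Figure D1:**
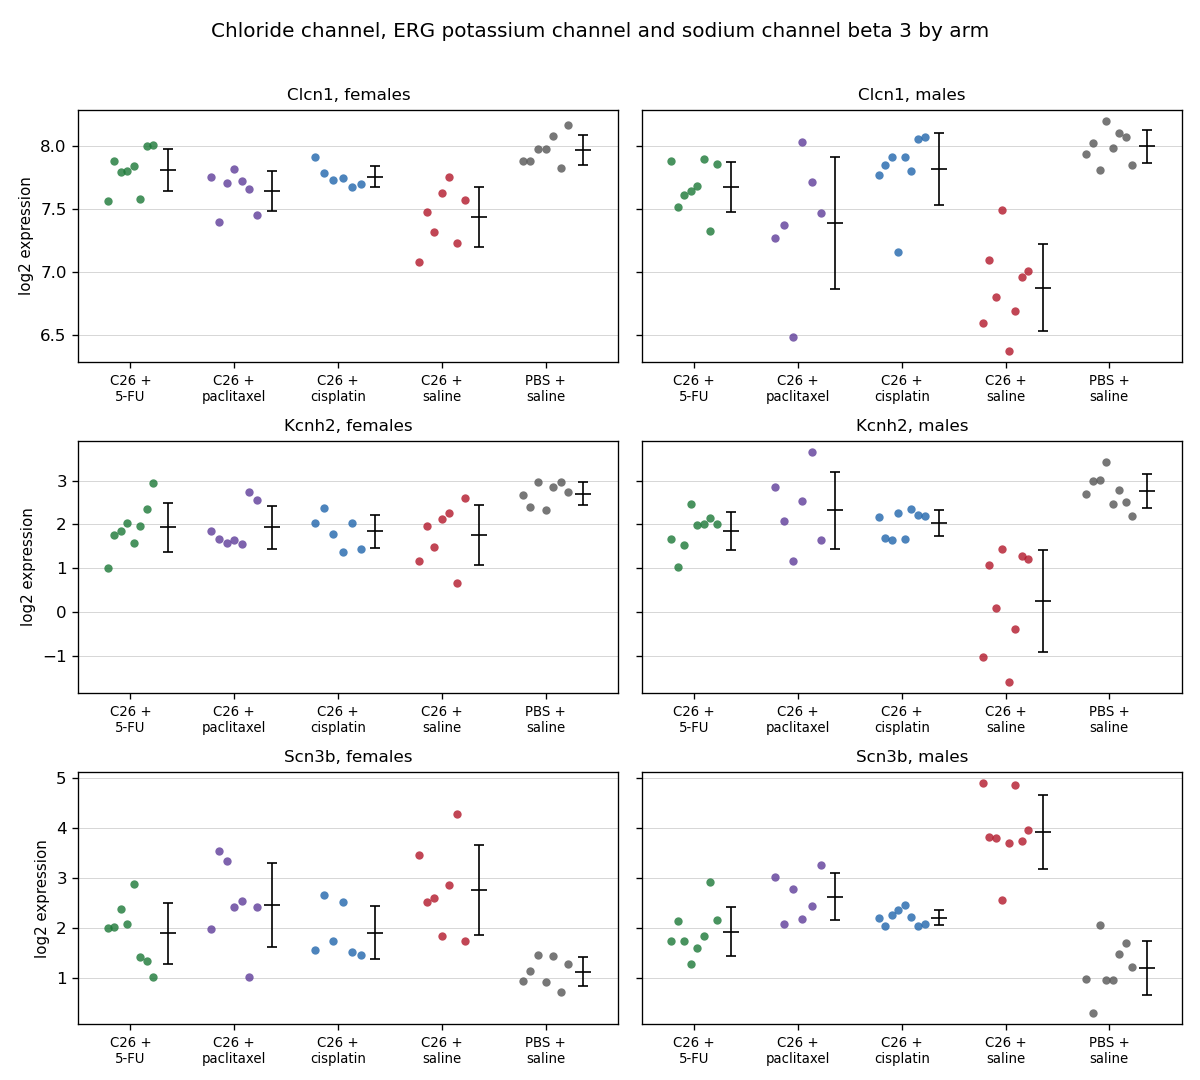
Log2 expression (vertical axes) of Clcn1, Kcnh2 and Scn3b in each library, by arm, with females on the left and males on the right; points are libraries and the bar beside each group is the mean ± SD. In C26 saline males Clcn1 ran from 6.38 to 7.49 and Kcnh2 from -1.59 to 1.44, below every PBS male, and Scn3b ran from 2.56 to 4.90, above every PBS male.

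Across the 7 genes, 3 of 7 did not overlap between C26 saline and PBS males (Clcn1, Kcnh2 and Scn3b), where 4.9% of all genes did not. In females 2 of 7 did not overlap (Clcn1 and Scn3b), where 2.42% of all genes did not. Between drug and C26 saline males, 2 of 7 did not overlap with cisplatin (0.65% of all genes), 0 of 7 with 5-fluorouracil (0.592%) and 0 of 7 with paclitaxel (1.49%). No gene of the 7 was free of overlap between drug and C26 saline females, where 0.383% of all genes were with 5-fluorouracil, 0.108% with paclitaxel and 2.3% with cisplatin. Against PBS, 1 of 7 did not overlap with paclitaxel in females (1.9%) and 1 of 7 in males (2.63%). Since the genes were chosen with these values known, nothing is read from these counts. The comparisons of drugs and of the tumour share the C26 saline libraries, so their values stand side by side only. Leaving out the 19 libraries of high GC slope, a check added after seeing the data, left 3 of 7 in males (8.09% of all genes) and gave 3 of 7 in females (6.63%) between C26 saline and PBS, with Kcnh2 the addition. It gave 3 of 7 for cisplatin (1.82%), 2 of 7 for 5-fluorouracil (2.28%) and 1 of 7 for paclitaxel (8.34%) against C26 saline in males, the last on 2 paclitaxel libraries.

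The sodium channel pore gene Scn4a, far more abundant than Scn3b, lay modestly lower in C26 saline males. They had 8.33 to 9.22 with a median of 8.80, against 8.95 to 9.55 with a median of 9.24 in PBS males. Of 8 C26 saline males 6 lay below the lowest PBS male, and the means differed by -0.47 ± 0.12, or 1.39-fold. Male means were 9.29 ± 0.14 with 5-fluorouracil, 9.31 ± 0.17 with paclitaxel and 9.26 ± 0.25 with cisplatin, each within 0.07 of the PBS mean of 9.24 ± 0.22. These were 0.52 ± 0.12, 0.54 ± 0.13 and 0.50 ± 0.12 above C26 saline at 8.76 ± 0.29, with overlap. In females the 5 means lay between 9.05 and 9.26, and the C26 saline mean of 9.10 ± 0.27 differed from the PBS mean of 9.26 ± 0.20 by -0.16 ± 0.12. With GC slope added to the fit, the male paclitaxel difference was 0.28.

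Scn4b, which encodes the beta 4 subunit, differed little between C26 saline and PBS. Male means were 8.47 ± 0.39 in C26 saline and 8.70 ± 0.15 in PBS, a difference of -0.23 ± 0.12, and female means were 8.96 ± 0.20 in C26 saline and 9.01 ± 0.16 in PBS, a difference of -0.06 ± 0.13. C26 saline males were spread from 8.02 to 9.06 around a median of 8.47. Male drug groups averaged 8.55 with 5-fluorouracil, 8.64 with paclitaxel and 8.52 with cisplatin, within 0.18 of C26 saline. Female drug groups lay lower than C26 saline by -0.13 ± 0.12, -0.28 ± 0.13 and -0.27 ± 0.13 and overlapped it.

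The potassium channel genes Kcnj11 and Kcnj2 had their widest differences from C26 saline in males given 5-fluorouracil or paclitaxel. Kcnj11 had 7.33 to 8.07 with 5-fluorouracil, 7.25 to 7.93 with paclitaxel and 7.29 to 7.91 with cisplatin, against 6.73 to 7.60 in C26 saline males. The ranges overlapped, and the means lay 0.36 ± 0.13, 0.42 ± 0.15 and 0.26 ± 0.13 above C26 saline. Between C26 saline at 7.26 ± 0.30 and PBS at 7.35 ± 0.24 the male difference was -0.09 ± 0.13. In females the cisplatin group was the lowest at 7.06 ± 0.09, against 7.31 ± 0.27 in C26 saline and 7.37 ± 0.27 in PBS. Females averaged 7.37 with 5-fluorouracil and 7.38 with paclitaxel.

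Kcnj2 spread unevenly within groups, with SDs from 0.30 in cisplatin females to 0.97 in paclitaxel males. Males had 3.19 to 6.10 with 5-fluorouracil, 3.19 to 5.75 with paclitaxel and 3.61 to 6.72 with cisplatin, against 4.49 to 6.36 in C26 saline and 4.60 to 6.08 in PBS. All of these ranges overlapped. The means of the drug groups lay -0.91 ± 0.34, -0.94 ± 0.37 and -0.39 ± 0.34 from C26 saline. The male C26 saline mean lay 0.42 ± 0.34 above PBS, with 7 of 8 C26 saline males above the PBS mean. Female means ran from 5.31 ± 0.65 in PBS to 5.83 ± 0.30 with cisplatin, with C26 saline at 5.55 ± 0.68. The female ranges overlapped too.

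**Figure D2:**
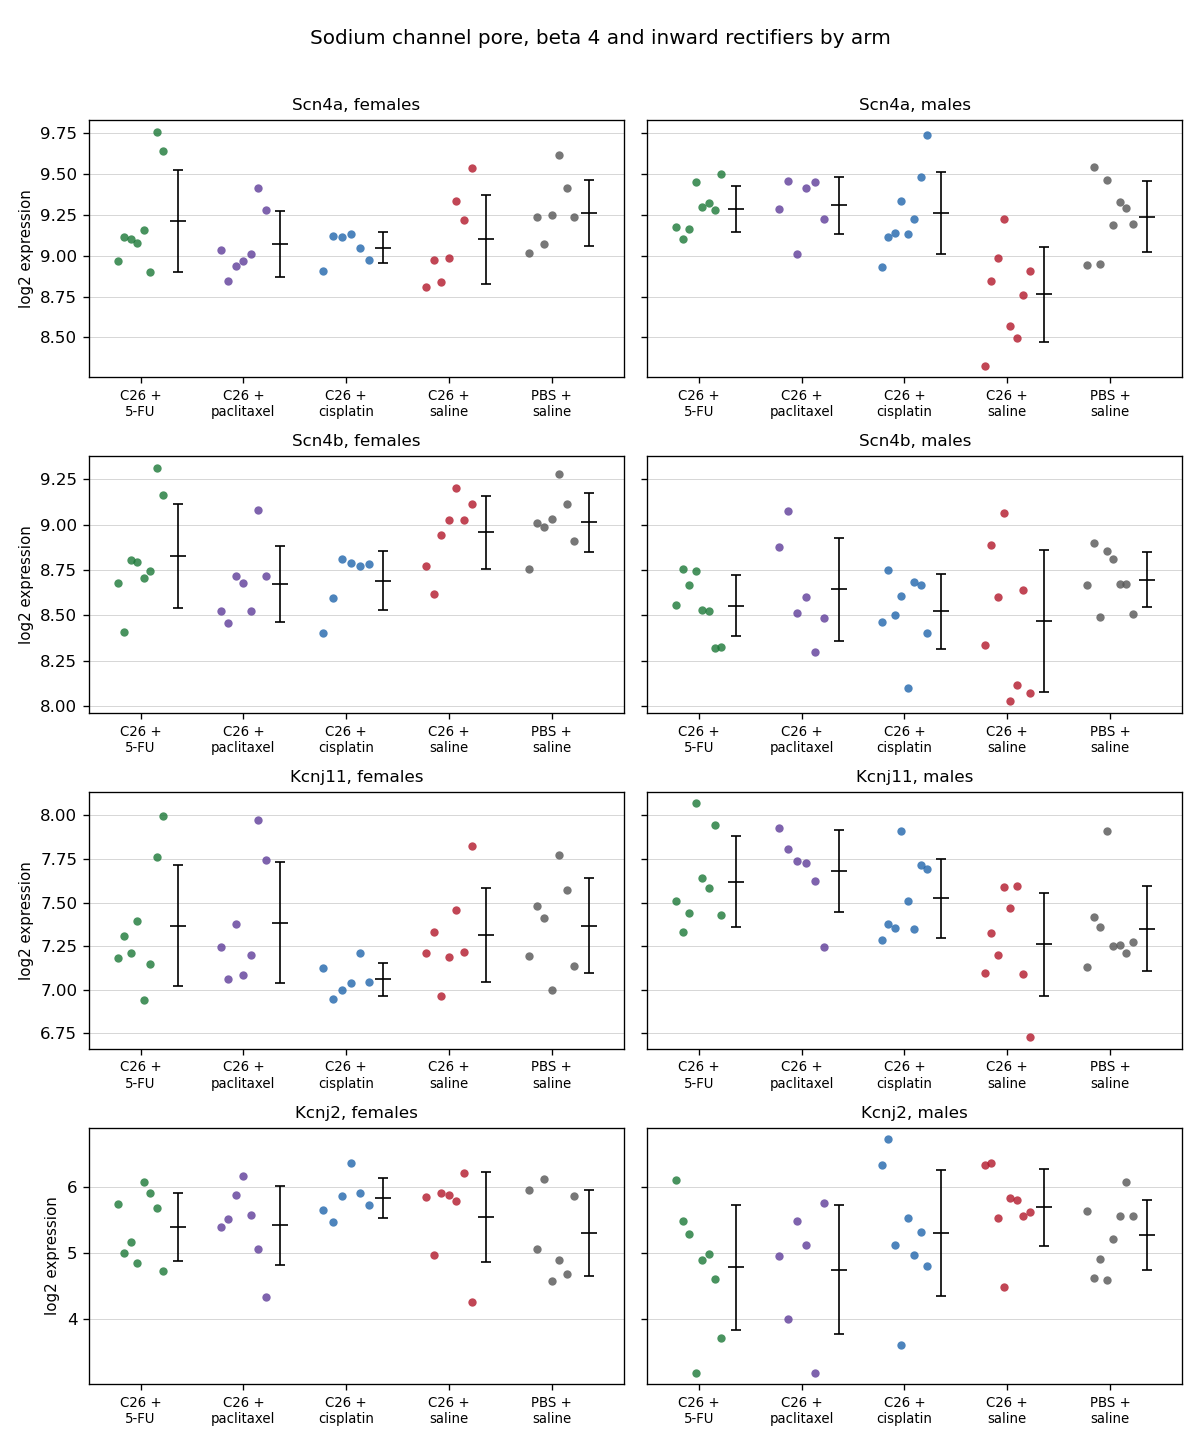
Log2 expression (vertical axes) of Scn4a, Scn4b, Kcnj11 and Kcnj2 in each library, by arm, with females on the left and males on the right; points are libraries and bars are the mean ± SD. In males Scn4a averaged 8.76 in C26 saline, with the drug groups at 9.26 to 9.31 and PBS at 9.24, while Kcnj2 ran down to 3.19 in the 5-fluorouracil and paclitaxel groups.

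Kcnj11, Kcnj2 and Scn4a varied with the GC slope of the library within groups. After removal of group means, over 73 libraries, the correlation with the slope was 0.77 for Kcnj11, 0.64 for Scn4a and -0.67 for Kcnj2, beside -0.15 for Clcn1, 0.47 for Kcnh2 and -0.30 for Scn3b. The share of mitochondrially encoded expression in the same libraries gave -0.72, -0.64 and 0.62 for Kcnj11, Scn4a and Kcnj2. All these measures come from the same libraries, so the correlations are descriptions. Transcripts of Kcnj11 are 57.7% GC and those of Kcnj2 41.2%. With the slope added to the fit, the male differences from C26 saline were 0.13, 0.04 and 0.17 for Kcnj11 and -0.39, -0.09 and -0.18 for Kcnj2, in the order 5-fluorouracil, paclitaxel and cisplatin. Those of Clcn1 were then 0.84, 0.58 and 0.96, those of Kcnh2 1.28, 1.54 and 1.64 and those of Scn3b -1.79, -0.96 and -1.62. The tumour differences in males stayed at -1.12 for Clcn1, -2.47 for Kcnh2 and 2.69 for Scn3b.

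**Figure D3:**
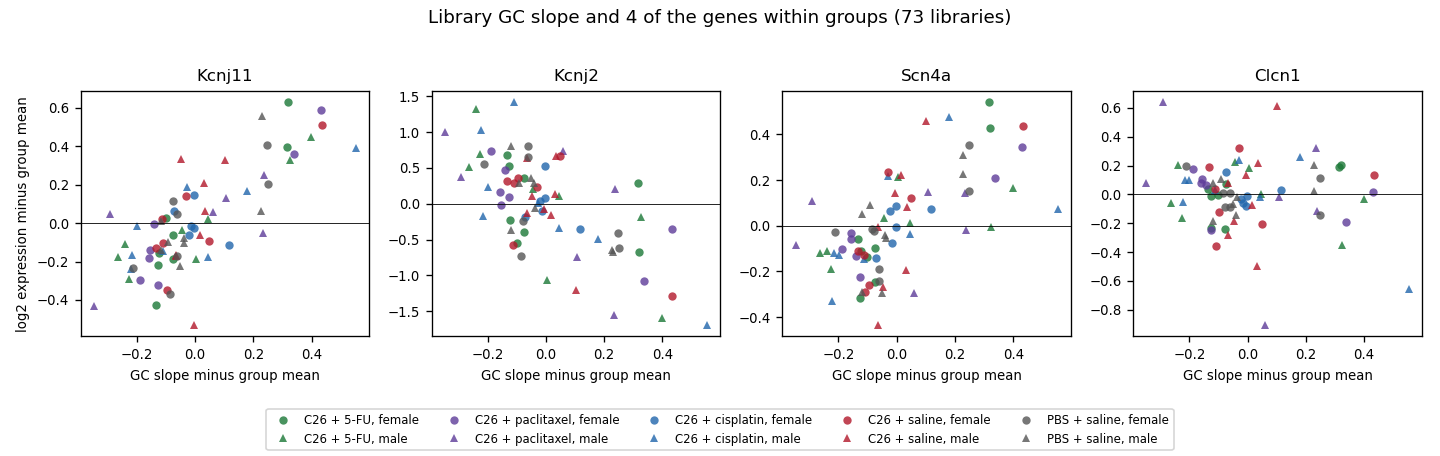
Deviation of log2 expression from the group mean (vertical axes) against deviation of the library's GC slope from the group mean (horizontal axes) for Kcnj11, Kcnj2, Scn4a and Clcn1; circles are female and triangles male libraries, colours are arms. Points rise to the right for Kcnj11 (r = 0.77) and Scn4a (r = 0.64), fall for Kcnj2 (r = -0.67) and show little slope for Clcn1 (r = -0.15).

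For Clcn1, Kcnh2 and Scn3b, the differences between C26 saline and PBS and between each drug and C26 saline were wider in males than in females. For the tumour, the male minus female difference was -0.59 ± 0.18 for Clcn1, -1.55 ± 0.44 for Kcnh2 and 1.08 ± 0.43 for Scn3b. For Kcnh2 it was 1.42 ± 0.44 with 5-fluorouracil, 1.88 ± 0.46 with paclitaxel and 1.68 ± 0.45 with cisplatin. For Clcn1 the corresponding values were 0.43 ± 0.18, 0.30 ± 0.19 and 0.62 ± 0.19, and for Scn3b they were -1.12 ± 0.42 with 5-fluorouracil and -0.85 ± 0.44 with cisplatin. These differences between the sexes were not tested, since the genes were chosen with these values known.

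**Figure D4:**
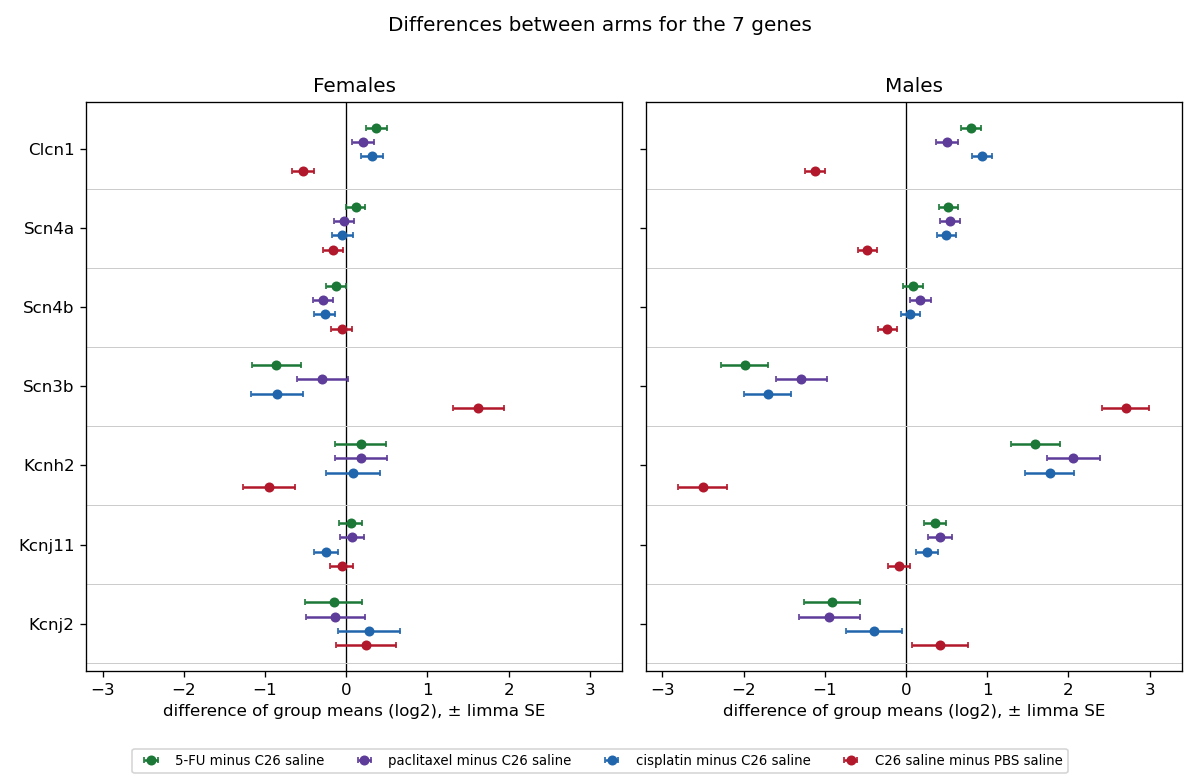
Differences of group means on the log2 scale (horizontal axes, bars are ± the SE of the fit over all genes) for the 7 genes, for each drug minus C26 saline and for C26 saline minus PBS saline, in females and males. Clcn1 and Kcnh2 lie left of 0 and Scn3b right of 0 for the tumour, and on the opposite sides for the drugs, over a wider range in males (Kcnh2 -2.50 for the tumour, 1.60 to 2.06 for the drugs) than in females (-0.95, 0.09 to 0.18).

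Compared per kilobase of the longest transcript, PBS females had the highest level for Scn4b at 6.70 ± 0.16, then Scn4a at 6.54 ± 0.20, Clcn1 at 6.14 ± 0.12 and Kcnj11 at 5.72 ± 0.27 (log2 level per kilobase, SD, n = 7). Scn4b and Scn4a differed by less than their SDs. Kcnj2 at 2.86 ± 0.65, Kcnh2 at 0.63 ± 0.26 and Scn3b at -0.91 ± 0.28 lay well below. PBS males had 6.52 ± 0.22 for Scn4a, 6.38 ± 0.15 for Scn4b, 6.17 ± 0.13 for Clcn1 and 5.70 ± 0.24 for Kcnj11 (n = 8). The order of these 4 depends on transcript length: with the mean length of a gene's transcripts Scn4a led at 7.45 and Kcnj11 came next at 7.24 in females, above Scn4b at 6.70 and Clcn1 at 6.63.

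The 7 genes also varied together within groups. With group means removed, over the same 73 libraries, which differ in GC slope, Scn4a correlated at 0.58 with Kcnh2, 0.58 with Kcnj11, 0.55 with Scn4b, 0.50 with Clcn1, -0.44 with Scn3b and -0.53 with Kcnj2. Clcn1 correlated at 0.54 with Kcnh2 and -0.37 with Scn3b, but at 0.02 with Kcnj11 and -0.08 with Kcnj2.

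The genes most like each of the 7 over all 73 libraries were ranked by Pearson r among genes averaging 1 or more on the log2 scale. For Clcn1 they were Tmem233 at 0.91, Casq1 at 0.90, which encodes the calcium-binding protein calsequestrin of fast fibres, and Nrep at 0.88. With group means removed these were 0.81, 0.79 and 0.72. For Kcnh2 they were Ptprs at 0.89, Lrrc38 at 0.89 and Sema6c at 0.88. For Scn3b they were Lcn2 at 0.84, which encodes lipocalin 2, a protein made by neutrophils and inflamed tissue, Anp32b at 0.84 and the chemokine gene Ccl6 at 0.84. With group means removed the Scn3b values were lower, at 0.60, 0.58 and 0.57. Scn4a went with the glycolytic enzyme genes Pgam2 (0.88) and Tpi1 (0.87) and with the calcium store gene Hrc (0.87), and Kcnj11 with Acta1, skeletal actin (0.86), Usp19 (0.86) and Sgca (0.86). Scn4b went with Acads (0.80), Dusp14 (0.77) and Slc38a3 (0.76). Kcnj2 went with Appbp2 (0.82), Sp1 (0.81) and Smad5 (0.81).

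Markers of neutrophils and macrophages moved with the tumour as well. Of 7 measured neutrophil markers 7 rose in C26 saline males and 6 in females, and of 8 macrophage markers 6 rose in males and 4 in females (limma, adjusted p under 0.05), where 26.1% of all genes were called in males and 6.7% in females. The mean log2 level of the neutrophil list was 1.24 ± 0.71 in C26 saline males and -2.11 ± 0.99 in PBS males, with ranges of 0.01 to 1.86 and -3.49 to -0.20 that did not overlap. It was -1.33 with 5-fluorouracil, 0.61 with paclitaxel and -1.19 with cisplatin in males. The mean of the macrophage list was 3.50 ± 0.46 and 2.52 ± 0.29 in C26 saline and PBS males. With group means removed, Scn3b correlated at 0.27 with the neutrophil list and 0.32 with the macrophage list, and Clcn1 at -0.36 with the neutrophil and -0.17 with the macrophage list. Fast fibre markers averaged 13.0 ± 0.4 in C26 saline males and 13.5 ± 0.2 in PBS males, with 4 of 9 called lower. Male drug groups averaged 13.6 with 5-fluorouracil, 13.5 with paclitaxel and 13.5 with cisplatin. In each, 4 of 9 were called higher than in C26 saline, where 23.3%, 31.9% and 15.9% of all genes were called. Within groups the fast fibre list correlated at 0.73 with Scn4a, 0.69 with Kcnj11, 0.64 with Scn4b and -0.55 with Kcnj2. It correlated at 0.34 with Clcn1, 0.45 with Kcnh2 and -0.51 with Scn3b. The part of any of these markers in the differences of the 7 genes was not tested.

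Other genes of membrane excitability were taken from lists by role, 161 genes of which 122 were measured. The lists were chosen with earlier results of these data known. Calls are at an adjusted p under 0.05 (limma, Benjamini-Hochberg over all 13856 genes). With the tumour, 20 rose and 24 fell in males, where 26.1% of all genes were called, and 9 rose and 7 fell in females, where 6.7% were. The list medians were -0.07 in males and -0.05 in females, beside 0.00 and -0.01 over all genes. Against C26 saline in males, 26 rose and 11 fell with 5-fluorouracil (23.3% of all genes called), 29 rose and 12 fell with paclitaxel (31.9%) and 17 rose and 8 fell with cisplatin (15.9%). In females 2 rose and 2 fell with 5-fluorouracil (1.35%) and 1 rose and 3 fell with cisplatin (1.66%). With paclitaxel 0 were called (0% of all genes, limma), with 12 at an unadjusted p under 0.05. The male paclitaxel count of 41 was 5 with GC slope in the fit and 11 without the libraries of high GC slope. Without male paclitaxel replicate 1 it was 23, and without replicate 5 it was 26. Without female C26 saline replicate 6 the female counts were 6 with the tumour, 1 with 5-fluorouracil and 0 with cisplatin.

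Among sodium channel genes, Scn7a, a sodium channel gene expressed in glia and nerve, rose by 1.19 with the tumour in males (adjusted p = 0.018). It fell to 2.01 ± 0.66 with 5-fluorouracil and 1.88 ± 0.72 with paclitaxel, against 3.32 ± 0.32 in C26 saline (adjusted p = 0.012 and 0.0092). With GC slope in the fit the paclitaxel call for Scn7a was lost (adjusted p = 0.73).

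The chloride channel list, which leaves out Clcn1, also held genes that are not channels, such as Ostm1. Its genes were called in both directions. In C26 saline males 3 of 16 measured genes rose and 3 fell, or 37.5%, where 26.1% of all genes were called. Ttyh1 rose by 1.54 (adjusted p = 0.00018), and Ostm1, a partner of the lysosomal chloride transporter, fell by 0.69 (adjusted p = 0.00029). Clic4 rose by 0.87 in C26 saline males (adjusted p = 1.4e-05). In females Ttyh1 rose by 1.40, to 1.18 ± 0.43 in C26 saline, against -0.22 ± 0.34 in PBS (adjusted p = 0.0060, no overlap).

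Of 29 voltage-gated and calcium-activated potassium channel genes, 1 rose and 7 fell in C26 saline males, or 27.6%, where 26.1% of all genes were called. Kcng4, a modifying subunit, had the widest difference of those named, 3.58 ± 1.43 in C26 saline males and 6.49 ± 0.42 in PBS males, with no overlap (log2 difference -2.91, adjusted p = 4.8e-09). It rose by 2.25 with 5-fluorouracil, 1.90 with paclitaxel and 2.43 with cisplatin relative to C26 saline (adjusted p = 9.7e-06, 0.00078 and 3.5e-06). Kcnn2, a calcium-activated potassium channel gene, fell by 2.64 with the tumour in males (adjusted p = 1.7e-06). Its values were low and uneven, at -1.30 ± 1.78 in C26 saline and 1.34 ± 0.43 in PBS males, and the groups overlapped. Among inward rectifier genes, Kcnj12, a close relative of Kcnj2, rose with 5-fluorouracil, paclitaxel and cisplatin in males, by 0.86, 0.76 and 0.87 (adjusted p = 0.00015, 0.0023 and 0.00012). With GC slope in the fit the paclitaxel call for Kcnj12 was lost (adjusted p = 0.095). Abcc8, a regulatory subunit of the ATP-sensitive channel, rose by 1.18 with the tumour in males (adjusted p = 7.0e-05), with no overlap.

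The sodium-potassium pump restores the ion gradients that the channels use. Its beta 2 subunit gene Atp1b2 fell by 0.72 in C26 saline males (adjusted p = 0.00038) and rose by 0.69 with 5-fluorouracil, 0.57 with paclitaxel and 0.86 with cisplatin (adjusted p = 0.0012, 0.010 and 7.6e-05). The paclitaxel call for Atp1b2 was not kept with GC slope in the fit (adjusted p = 0.080). Fxyd5, a pump regulator also expressed outside muscle fibres, rose with the tumour by 1.33 in males and 1.22 in females (adjusted p = 3.9e-09 and 8.7e-07), with no overlap in either sex. It fell with 5-fluorouracil and cisplatin relative to C26 saline in males, by 0.66 and 0.84 (adjusted p = 0.0025 and 0.00014). Of 14 measured pump genes, 1 rose and 2 fell in C26 saline males, or 21.4%, where 26.1% of all genes were called.

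The called genes of the transverse tubule calcium channel complex had the same signs as Clcn1 in males. Of 13 measured genes 7 fell and 0 rose with the tumour, where 26.1% of all genes were called. The list median was -0.49, beside 0.00 over all genes. Against C26 saline 8 rose with 5-fluorouracil (23.3% of all genes called), 7 with paclitaxel (31.9%) and 6 with cisplatin (15.9%), with 0 falling. The tumour and drug comparisons share the C26 saline libraries, so their opposite signs are not independent. Jph2, a junctophilin that holds the tubule to the calcium store, averaged 8.60 ± 0.60 in C26 saline and 9.91 ± 0.24 in PBS males, a fall of 1.30 (adjusted p = 5.0e-06). It rose by 1.26, 1.29 and 1.18 with 5-fluorouracil, paclitaxel and cisplatin (adjusted p = 3.7e-05, 0.00042 and 8.9e-05). Stac3, which the calcium channel needs to couple to contraction, fell by 0.98 with the tumour (adjusted p = 5.2e-05) and rose by 0.87 with 5-fluorouracil, 0.83 with paclitaxel and 0.81 with cisplatin (adjusted p = 0.00071, 0.0033 and 0.0016). Cacna1s, the pore of this channel, was 0.71, 0.64 and 0.67 higher with the 3 drugs (adjusted p = 0.00010, 0.0018 and 0.00022). With GC slope in the fit, 1 of 13 was called with paclitaxel, and the call for Cacna1s with paclitaxel was lost (adjusted p = 0.079). In females 1 of 13 fell with the tumour, where 6.7% of all genes were called. It was Cacng6, by 0.25 (adjusted p = 0.043, or 0.158 without C26 saline replicate 6).

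**Figure D5:**
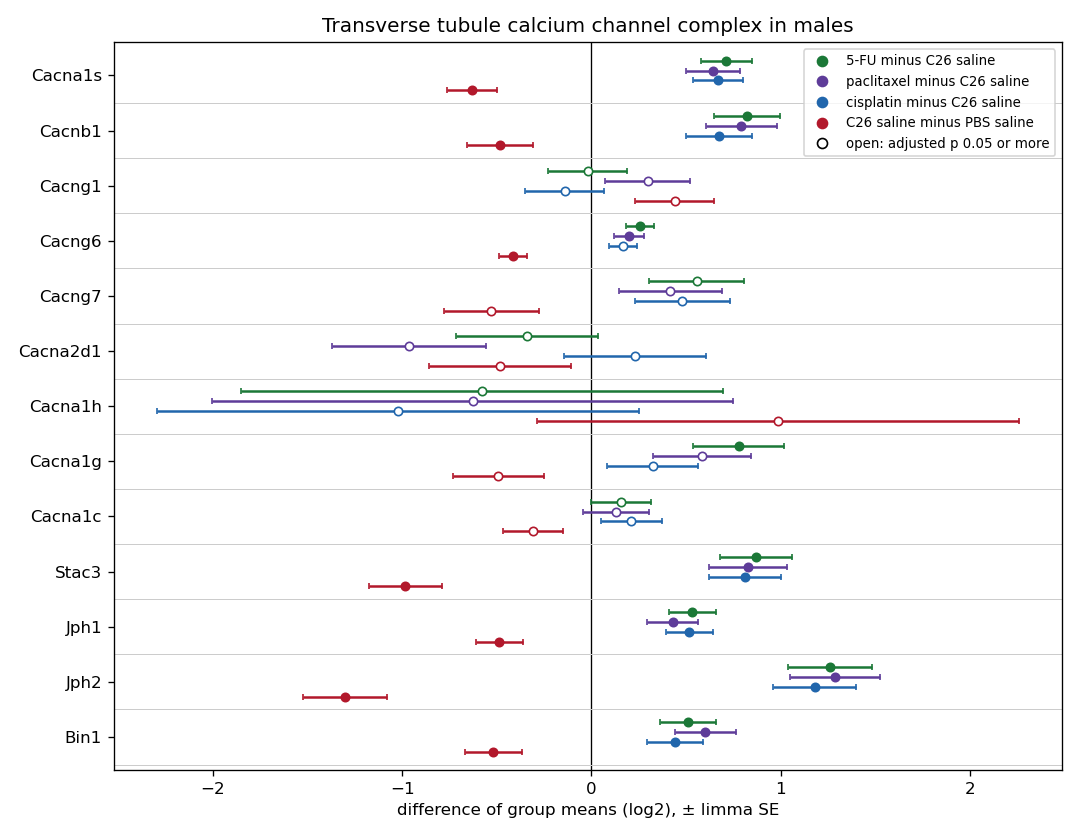
Differences of group means on the log2 scale (horizontal axis, bars are ± the SE of the fit) for the 13 genes of the transverse tubule calcium channel complex in males, with filled points at an adjusted p under 0.05. Jph2 lies at -1.30 for the tumour and at 1.18 to 1.29 for the drugs. For the tumour 7 of the 13 genes have a filled point left of 0, where 26.1% of all genes were called.

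Genes that anchor or turn over channels were split. Ank1, an ankyrin, fell by 1.22 in C26 saline males (7.80 ± 0.60, against 9.02 ± 0.17 in PBS; adjusted p = 7.5e-07) and by 0.72 in females (adjusted p = 0.016). The female call was lost without C26 saline replicate 3 (adjusted p = 0.057) or replicate 6 (0.094). Ank1 rose with every drug in males, by 1.26, 1.02 and 1.24 (adjusted p = 4.4e-06, 0.00063 and 4.3e-06). Ank3, another ankyrin, rose by 0.68 in C26 saline males (adjusted p = 3.4e-05). Nedd4l, a ubiquitin ligase known to act on sodium channels, rose by 0.87 in males and 0.84 in females with the tumour (adjusted p = 0.00016 and 0.0030).

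Genes known to respond to loss of the nerve were also called with the tumour in males, 8 rising and 2 falling of 16 measured, where 26.1% of all genes were called. In females 3 rose and 1 fell, where 6.7% of all genes were called. Runx1 rose by 1.49 in males and 1.45 in females (adjusted p = 2.3e-06 and 9.0e-05). Chrne, the adult subunit of the acetylcholine receptor, fell by 1.04 in males, to 3.62 ± 0.59 in C26 saline, against 4.65 ± 0.29 in PBS (adjusted p = 1.4e-05). Chrne rose by 1.18 with 5-fluorouracil, 0.67 with paclitaxel and 1.00 with cisplatin relative to C26 saline (adjusted p = 8.4e-06, 0.010 and 8.0e-05), the paclitaxel call being lost with GC slope in the fit (adjusted p = 0.095). Runx1 fell by 1.25 with 5-fluorouracil and 1.19 with cisplatin (adjusted p = 0.00016 and 0.00027). The list as a whole did not reverse. Against C26 saline in males, 4 of its genes rose and 2 fell with 5-fluorouracil, 5 and 1 with paclitaxel and 3 and 2 with cisplatin. Of all genes, 23.3%, 31.9% and 15.9% were called. The list medians were -0.16, -0.02 and -0.12, beside -0.03, -0.005 and -0.04 over all genes. In the 4 interactions with sex, none of the 122 genes passed the threshold in limma, with 14 to 22 at an unadjusted p under 0.05. Over all genes 0.0361% passed for the tumour and 0% for each drug, with 1132 genes at an unadjusted p under 0.05 for the tumour and 1993 to 2704 for the drugs. The labels do not say that libraries of a group came from separate animals, so the p-values reflect only the spread among these libraries, which may be technical.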

How the data were processed

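The labels list 75 samples of gastrocnemius RNA, and 73 libraries were used. A library titled C26 saline whose treatment label names 5-fluorouracil was left out, as was a PBS female with no column. Values are log2 normalized expression as the authors deposited them. They behave as log2 of an estimated count plus 0.5 over a scaled library size, since 85.0 to 90.7% of values gave a count within 0.02 of a whole number. The submitters' processing notes name fastp, Salmon and limma and the build GRCm39, without roles or versions.

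All 13856 genes and 10 groups were fitted together with limma 3.58.1 in R 4.3.3 (lmFit and eBayes with a trend), and p-values were Benjamini-Hochberg adjusted over all genes, with calls at 0.05. The fit was tested on simulated data. SEs of differences come from this fit, and SDs are over libraries. The 7 genes and the lists were chosen with earlier results of these data known. Named genes of a list are up to 3 called genes a list and comparison with the lowest adjusted p, and some of these are not reported here.

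GC slope used 10637 genes with a mean log2 of at least 1, and transcript GC was found for 99.5% of genes. The mitochondrial share used 13 genes. Alternatives were a pseudocount of 1, a filter at mean log2 of 1, quantile normalization, quality weights, the compared groups alone, the GC slope as a covariate, leaving out high GC slopes or single libraries, and a replicate block. Libraries were not paired in the main fit, and the replicate block added the replicate number as a term over all 10 groups. The labels give no other link between libraries. For female paclitaxel and C26 saline, all 7 pairs of the same number correlated at 0.16 to 0.80 after removal of group means.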

Additional observations from a re-analysis of the deposited data

Results flagged for a closer look

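Of 70 sets of values (7 genes in 10 groups), 4 had a library apart from the others of its group by Dixon's criterion, where chance gives about 1 in 20, or 3.5. Clcn1 was 7.16 in male cisplatin replicate 4, with the next library at 7.77. Scn4b was 9.08 in female paclitaxel replicate 6, with the next at 8.72. Kcnj11 was 7.91 in male PBS replicate 4, with the next at 7.42. Kcnj2 was 4.49 in male C26 saline replicate 4, with the next at 5.53.

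Kcnj11 with cisplatin lay on opposite sides of C26 saline in the sexes. The difference was 0.26 in males, with 8 of 8 cisplatin libraries above the C26 saline mean, and -0.25 in females, with 6 of 6 below it. Male minus female was 0.52 ± 0.20, and this difference was not tested, since the gene was chosen with these values known. Within groups Kcnj11 correlated at 0.77 with the GC slope of the library. With GC slope in the fit, the cisplatin difference was 0.17 in males and -0.10 in females.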

How the results depend on the processing

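The 8 differences of Clcn1 kept their sign under every alternative. Of the 56 differences of the 7 genes, 15 took the other sign under an alternative or without 1 library, all under 0.30 in size. Among them, female paclitaxel Scn3b (-0.29) became 0.02 and Kcnh2 (0.18) became -0.05 with quality weights, and female cisplatin Kcnj2 (0.28) became -0.07 with GC slope in the fit. None of 826 values with 1 library left out moved beyond the SD. With a pseudocount of 1 the male Kcnh2 differences were -1.73 for the tumour and 0.98, 1.38 and 1.11 for 5-fluorouracil, paclitaxel and cisplatin. With GC slope in the fit, the male paclitaxel differences were 0.28 for Scn4a, 0.042 for Kcnj11 and -0.088 for Kcnj2, and without libraries of high GC slope that of Clcn1 was 0.87. The cause of these shifts was not tested. Counts below are over all genes, then over the 122 excitability genes.

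In females, the tumour called 928 and 16 genes, 5-fluorouracil 187 and 4, paclitaxel 0 and 0 (845 at an unadjusted p under 0.05) and cisplatin 230 and 4. In males they called 3617 and 44, 3233 and 37, 4424 and 41, and 2203 and 25. With GC slope in the fit, the counts were 1940 and 25 for the female tumour comparison, 426 and 7 for female 5-fluorouracil, 431 and 8 for female cisplatin, 5619 for the male tumour comparison, 482 and 5 for male paclitaxel and 3964 and 39 for male cisplatin. Without libraries of high GC slope they were 1654 for the female tumour comparison, 1 for female paclitaxel, 906 and 15 for female cisplatin, 722 and 11 for male paclitaxel and 3407 and 38 for male cisplatin. With the compared groups alone they were 87 and 0 for female 5-fluorouracil, 1 for female paclitaxel, 668 and 13 for female cisplatin, 24 excitability genes for male paclitaxel, 1028 genes for male cisplatin and 10 for the sex interaction of the tumour, against 5. Quality weights gave 2047 and 30 for the female tumour comparison, 987 and 11 for 5-fluorouracil, 118 and 2 for paclitaxel and 2325 and 29 for cisplatin in females. Quantile normalization gave 7 excitability genes for female cisplatin, and a mean log2 of at least 1 gave 108 genes for female 5-fluorouracil.

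With 1 library left out, the female counts ran from 538 to 1062 and 6 to 17 for the tumour, 68 to 234 and 1 to 6 for 5-fluorouracil, 0 to 1 for paclitaxel, and 74 to 306 and 0 to 6 for cisplatin, each lowest count without C26 saline replicate 6 except for paclitaxel. The male counts ran from 2007 to 3897 for 5-fluorouracil, 2356 to 5466 and 23 to 47 for paclitaxel (lowest without paclitaxel replicate 5 for all genes and replicate 1 for excitability genes), and 1481 for cisplatin at the lowest.

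With the replicate block, the female counts were 940 and 14 for the tumour, 185 and 4 for 5-fluorouracil, 0 and 0 for paclitaxel and 183 and 4 for cisplatin, and the male counts 3670 and 46, 3353 and 37, 5299 and 46, and 2270 and 25. It ended 2 calls of named genes, Cacng6 for the female tumour comparison (adjusted p = 0.051) and Kcnq1 for female cisplatin (adjusted p = 0.061). In the comparisons other than female paclitaxel, some pairs of the same number correlated under 0.1. Low estimated counts limit Kcnh2 and Scn3b most.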
